A study of Mus musculus with 95 samples.

Results

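The 9 genes described here code for major urinary proteins of the mouse: Mup3, Mup7, Mup9, Mup11, Mup12, Mup15, Mup17, Mup20 and Mup21. They were chosen by symbol from the rows of a gene count table with 55401 rows. The same table holds 13 other rows named Mup with a number and 27 rows of Mup pseudogenes. In the 24 liver libraries the 9 genes held between 86.8% and 97.4% of all counts given to Mup rows.

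Major urinary proteins are small lipocalins, proteins with a barrel-shaped pocket that binds small lipophilic molecules. In the adult mouse they are made chiefly by hepatocytes, secreted into the blood and filtered into the urine, where they carry volatile pheromones and act as scent signals themselves. Their liver expression is known to be higher in males and to depend on the pulsatile male pattern of growth hormone, with androgens, thyroid hormone and glucocorticoids acting beside it. Mup20 codes for darcin, the male urinary protein that attracts females and helps them learn a male's scent. The family is usually split into central genes, which are nearly identical copies, and more divergent peripheral genes, to which Mup3, Mup20 and Mup21 belong.

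All animals were C57BL/6J mice, an inbred strain, and 3 groups were compared: mice in a torpor-like state (TLS) for 3 months, labelled Stim, their controls, labelled Con, and time-0 mice, labelled T0. An age row in the deposited table gives 122 days for time-0 animals and 205 days for the TLS and control animals. Liver, kidney, cortex and white adipose tissue (WAT) gave 95 bulk libraries of poly(A) RNA, with 8 animals per group and tissue, 4 marked F and 4 marked M, except 7 in WAT controls. The sources used here do not say how TLS was induced or what control animals received. All 95 libraries matched their sex letter, but kidney libraries T0_4 and T0_5 carry the other letter than the same animals' other tissues. Liver libraries held between 4031533 and 29269511 counts. Within each tissue, values are CPM, counts scaled to the effective library size, which is the total adjusted by trimmed means.

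All 9 genes lie on chromosome 4 of GRCm38, on the minus strand, within 2.084 Mb. Mup7 opens the series at chr4:60066469-60070475, followed by Mup9 at chr4:60418046-60421952 and Mup11 at chr4:60658466-60662411. Mup12 lies at chr4:60737383-60741326, Mup15 at chr4:61435790-61439743 and Mup17 at chr4:61591929-61595871. The peripheral genes close it, Mup20 at chr4:62050234-62054158, Mup3 at chr4:62083476-62087342 and Mup21 at chr4:62147932-62150863. GENCODE annotates each as protein coding, and the counts stand for whole genes.

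How far a count can be assigned to 1 gene depends on its transcript. Of the stretches of 50 bases in the annotated transcripts, 86.7% of those of Mup3 and 80.7% of those of Mup21 occur in no other gene. For Mup20 the share is 49.5%. It falls to 22.2% for Mup11, 21.9% for Mup17, 20.9% for Mup9, 14.6% for Mup12, 13.3% for Mup7 and 0% for Mup15. With stretches of 100 bases Mup15 reaches 2.66%. Coding sequences were 99.45% identical between Mup12 and Mup15 and 98.53% between Mup15 and Mup17, against 94.95% between Mup3 and Mup21. The sources used here do not say how reads that fit several genes were counted. The levels of the 6 central genes are therefore uncertain relative to each other, and a change in 1 of them may hold reads of another.

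**Figure D1:**
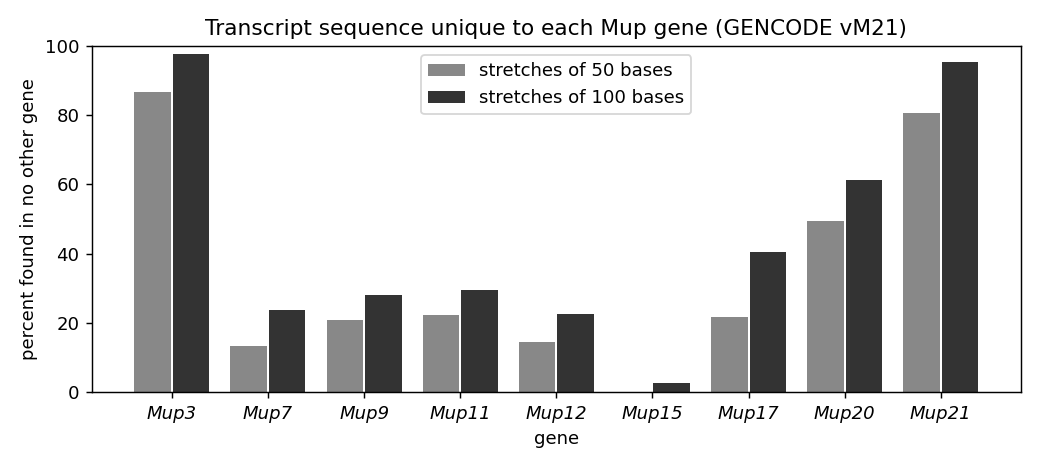
Percent of each gene's annotated transcript stretches of 50 bases (grey bars) and 100 bases (black bars) that occur in no other GENCODE gene; the x axis lists the 9 genes. Mup3 and Mup21 stand above 80% at 50 bases, Mup20 at 49.5%, and Mup15 at 0%.

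The promoters split in the same way, and 4 are shown because they pair the clearest members of each kind. RefSeq entries on GRCm38.p6 were found for 7 of the 9 genes, and not for Mup12 and Mup20. Each line gives the 250 bases before the start that RefSeq annotates, 5′ to 3′ on the gene's strand, with the letters TATATAA in capitals. The RefSeq starts of these 4 genes lie inside the GENCODE intervals given above, and so do the marked letters. These windows lie at chr4:62087318-62087567 for Mup3, chr4:62150842-62151091 for Mup21, chr4:61439705-61439954 for Mup15 and chr4:61595833-61596082 for Mup17, all on the minus strand.
Mup3: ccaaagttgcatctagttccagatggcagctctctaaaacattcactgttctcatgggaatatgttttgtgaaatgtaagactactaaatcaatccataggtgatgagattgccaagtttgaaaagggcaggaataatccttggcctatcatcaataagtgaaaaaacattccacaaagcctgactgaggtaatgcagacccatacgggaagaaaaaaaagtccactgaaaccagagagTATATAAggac
Mup21: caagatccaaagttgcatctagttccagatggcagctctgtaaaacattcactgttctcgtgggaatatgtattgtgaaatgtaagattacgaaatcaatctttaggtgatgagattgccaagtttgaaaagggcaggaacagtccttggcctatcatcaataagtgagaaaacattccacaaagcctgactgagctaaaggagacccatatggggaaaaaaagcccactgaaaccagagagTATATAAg
Mup15: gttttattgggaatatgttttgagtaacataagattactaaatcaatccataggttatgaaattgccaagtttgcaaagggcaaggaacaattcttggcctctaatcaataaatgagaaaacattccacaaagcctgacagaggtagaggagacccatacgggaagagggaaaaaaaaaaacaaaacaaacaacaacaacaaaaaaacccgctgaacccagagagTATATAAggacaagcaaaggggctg
Mup17: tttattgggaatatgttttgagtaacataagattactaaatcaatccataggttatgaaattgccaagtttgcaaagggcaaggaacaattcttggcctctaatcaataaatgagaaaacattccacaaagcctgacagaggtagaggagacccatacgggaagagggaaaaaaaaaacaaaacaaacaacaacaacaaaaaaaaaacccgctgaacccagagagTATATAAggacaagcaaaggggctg

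Over their aligned part the Mup3 and Mup21 windows were 92.7% identical, and those of Mup15 and Mup17 98.4%. Between Mup3 and Mup15 the identity was 79.9%. The letters TATATAA, a motif picked after the sequences were seen and searched on both strands, occur in 5 of the 7 windows and in 3.04% of 32851 mouse promoter windows of that length. Neither TTCNNNGAA, the core of STAT sites, nor TTGCNNAA, the core of C/EBP sites, was found on either strand of the 7 windows. They occur in 7.02% and 9.56% of all windows. The missing letters describe only these 250 bases.

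In liver, every member was higher in M than in F when the 3 groups were averaged (edgeR quasi-likelihood test, Benjamini-Hochberg adjusted p below 0.05). That was 9 of 9 members, against 6.35% of 13604 tested genes called in either direction. The log2 difference ran from 2.28 ± 0.30 (SE) for Mup3 to 9.71 ± 0.52 for Mup7. The adjusted p from edgeR was highest for Mup17, at 0.0143.

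For Mup7, Mup11, Mup20 and Mup21 each of the 12 M libraries lay above each of the 12 F libraries. A full separation of that kind was found in 0.404% of tested genes. The lowest M library of Mup7 measured 161 CPM and the highest F library 2.74 CPM. For Mup20, the darcin gene, the lowest M value was 3074 CPM and the highest F value 198 CPM. The other 5 members overlapped between the sexes, but none of their time-0 M libraries lay within the range of the F libraries. Mup3 was the member least bound to sex in control livers after Mup15 and Mup17: its M mean was 4.59 times the F mean, against 2.68 times for Mup15, 3.72 times for Mup17 and 604 times for Mup7.

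**Figure D2:**
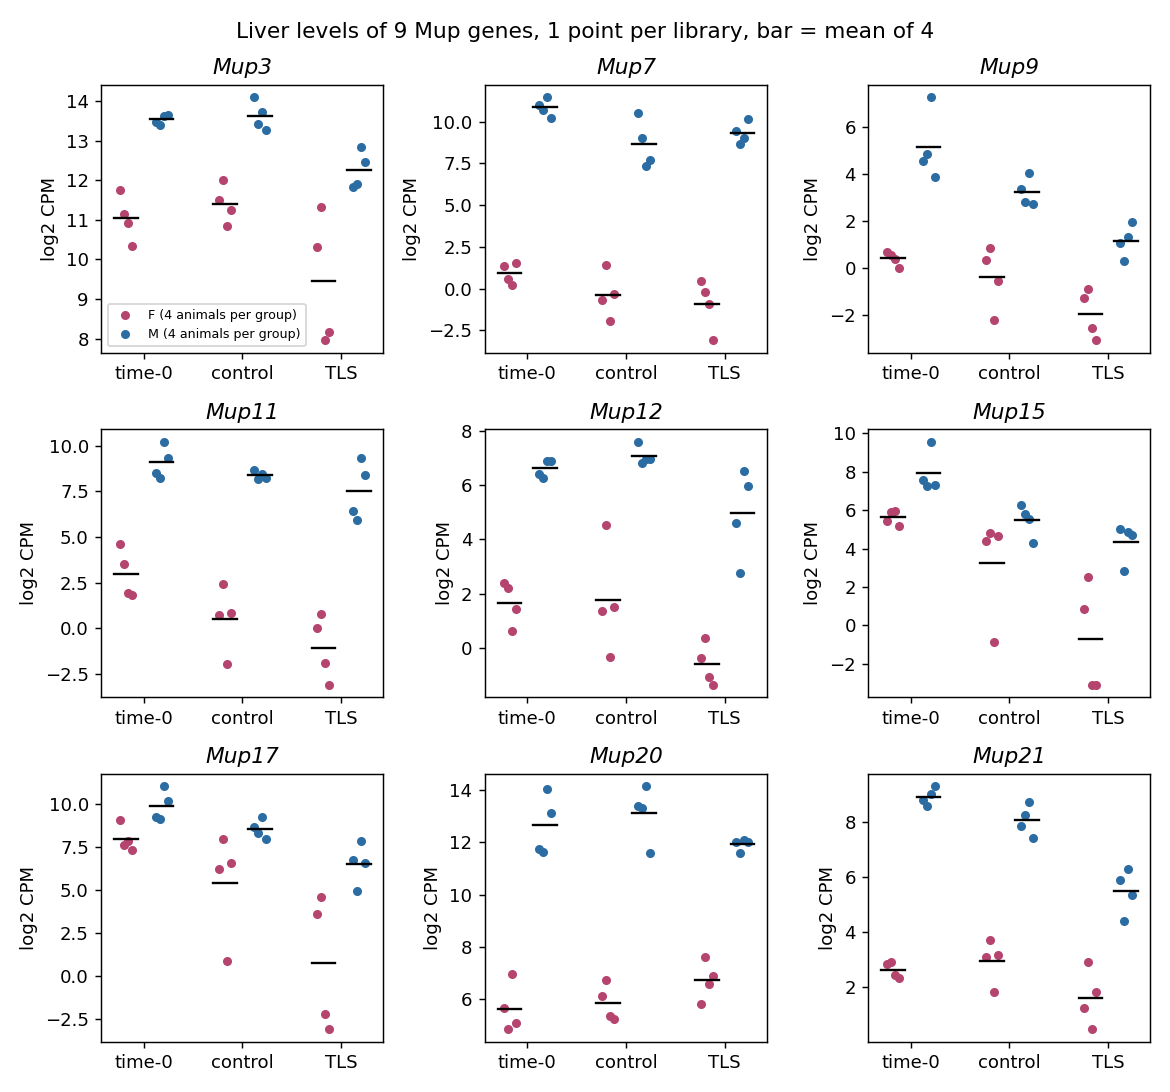
Liver levels of the 9 genes in log2 CPM (y axis of each panel) for time-0, control and TLS animals (x axis), 1 point per library, F and M in different colours, bars at the mean of 4. The M points of Mup7, Mup11, Mup20 and Mup21 lie above all F points, and the TLS points of Mup21 in M lie below those of both other groups.

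Between genes, levels were compared per kb of annotated exon. In control M livers Mup3 led at 12097 ± 3203 CPM per kb (SD, n = 4), and Mup20 followed at 11427 ± 6680. Those 2 genes did not differ beyond their spread. Mup7 came next at 572 ± 583, with Mup21 at 416 ± 163 and Mup17 at 416 ± 158. These 3 also lay within each other's spread. Mup11 stood at 214 ± 33.0, Mup12 at 152 ± 41.4, Mup15 at 53.6 ± 25.6 and Mup9 at 6.64 ± 3.05 CPM per kb. Of these last genes, Mup11 and Mup12 were closer together than the sum of their SDs. In control F livers the order was another: Mup3 measured 2636 ± 918 CPM per kb, far above Mup17 at 112 ± 109 and Mup20 at 68.7 ± 34.9. Mup15 stood at 20.0 ± 13.4, Mup21 at 12.5 ± 5.77 and Mup12 at 7.81 ± 11.5. Mup11, Mup7 and Mup9 closed the order at 1.36 ± 1.37, 0.946 ± 1.05 and 0.580 ± 0.456 CPM per kb. Below Mup3, Mup20 and Mup15 were the one pair of neighbours in F that stood apart by more than the sum of their SDs.

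Of the members, 3 were lower in TLS livers than in controls: Mup3, Mup12 and Mup21. None was higher. Among all 13604 genes 1.95% were called in this comparison, 93 higher and 172 lower. The median log2 difference of the 9 members was -1.80, beside 0.08 over all tested genes. In bulk liver, fewer hepatocytes and less RNA per hepatocyte cannot be told apart.

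Mup3, the most abundant member, measured 2878, 4136, 1826 and 2422 CPM in control F livers and 1280, 2582, 247 and 289 CPM in TLS F livers. In M it measured 17526, 10902, 13424 and 9827 CPM in controls and 3664, 3860, 7327 and 5641 CPM under TLS. All TLS M libraries lay below all control M libraries, while in F 3 of 4 lay below all controls. The TLS mean was 39.1% of the control mean in F and 39.7% in M. The log2 difference was -1.35 ± 0.35 (SE), with an adjusted p of 0.0434 from edgeR. The call was kept in 4 of the 16 fits that each left out 1 control or TLS library. The log2 difference in those 16 fits ran from -1.72 to -1.19.

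Mup21, a peripheral gene whose transcript is mostly unique, measured 229, 306, 424 and 169 CPM in control M livers. Under TLS the M livers measured 58.9, 21.2, 78.7 and 40.4 CPM, so the groups did not overlap. In F the control values were 8.51, 13.0, 3.47 and 9.00 CPM and the TLS values 2.26, 7.42, 1.27 and 3.47 CPM, with overlap. The TLS mean was 17.7% of the control mean in M and 42.5% in F. The log2 difference over both sexes was -1.80 ± 0.41, with an adjusted p of 0.0230 from edgeR. Without control F library 9916, control M library A367 or TLS M library E46E the adjusted p was 0.0687, 0.0540 or 0.0582, and it passed in the other 13 such fits.

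Mup12 measured 197, 112, 125 and 127 CPM in control M livers and 24.1, 6.74, 92.3 and 63.4 CPM in TLS M livers. In F it measured 2.45, 23.1, 0.674 and 2.7 CPM in controls and 0.657, 1.18, 0.356 and 0.267 CPM under TLS. The groups did not overlap in M, and in F the single control at 23.1 CPM, animal 9916, stood above the rest. The log2 difference was -2.30 ± 0.57, with an adjusted p of 0.0387 from edgeR. Without animal 9916 it was -1.54 with an adjusted p of 0.0962. The call was kept in 6 of the 16 fits with 1 library left out.

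The central genes Mup9, Mup15 and Mup17 had log2 differences of the same size but did not pass. Mup9 stood at -2.20 ± 0.61 (adjusted p = 0.0576, edgeR), Mup17 at -2.52 ± 0.78 (adjusted p = 0.0927) and Mup15 at -2.07 ± 0.68 (adjusted p = 0.110). Mup17 measured 394, 312, 587 and 250 CPM in control M livers and 106, 30.5, 231 and 91.9 CPM in TLS M livers, without overlap. In F the Mup17 controls measured 74.7, 243, 1.73 and 95.4 CPM and the TLS livers 12.2, 24, 0.102 and 0 CPM. The control at 1.73 CPM, animal A123, lay among the TLS values. Without A123, Mup17 passed at -2.67 (adjusted p = 0.0464) and Mup9 at -2.32 (adjusted p = 0.0425), and without TLS F library B23B Mup9 passed at -2.45 (adjusted p = 0.0215).

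Mup15 stood in control F livers at 20.6, 27.7, 0.433 and 25.3 CPM, again with A123 lowest. In TLS F livers it was counted at 1.68 and 5.52 CPM in animals B03E and B23B, and at 0 in B4B9 and B51B. With 3 counts taken as the floor, those 0 values allow up to 0.153 CPM in B4B9 and 0.800 CPM in B51B, the shallowest liver library. In M it measured 76.4, 55.4, 47.1 and 19.3 CPM in controls and 32.5, 6.99, 28.9 and 26.2 CPM under TLS, with overlap. Mup9 measured 10.2, 6.87, 16.3 and 6.38 CPM in control M livers and 1.97, 1.10, 2.37 and 3.75 CPM in TLS M livers. Those values did not overlap, and in F all 8 Mup9 values were at or below 1.66 CPM.

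Mup7, Mup11 and Mup20 did not pass and had small differences over both sexes. Mup20 stood at -0.16 ± 0.47, Mup7 at -0.07 ± 0.47 and Mup11 at -0.63 ± 0.61 (adjusted p = 0.893, 0.953 and 0.620, edgeR). Mup20 measured 10851, 10249, 18245 and 3074 CPM in control M livers and 4147, 3128, 4395 and 4147 CPM in TLS M livers. The groups overlapped through 1 control, E329, and the TLS mean was 37.3% of the control mean. In F its control values were 69.7, 107, 40.7 and 37.6 CPM and its TLS values 55.6, 198, 95.6 and 119 CPM, with a TLS mean at 184% of the control mean. In F, 2 of 4 TLS livers lay above all controls.

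Mup7 measured 1460, 530, 161 and 211 CPM in control M livers and 703, 405, 531 and 1168 CPM in TLS M livers, which overlapped widely. Mup11 measured 407, 292, 349 and 304 CPM in control M livers. Its TLS M values were 86.0, 61.7, 640 and 335 CPM, so the TLS group both undercut and exceeded the controls.

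**Figure D3:**
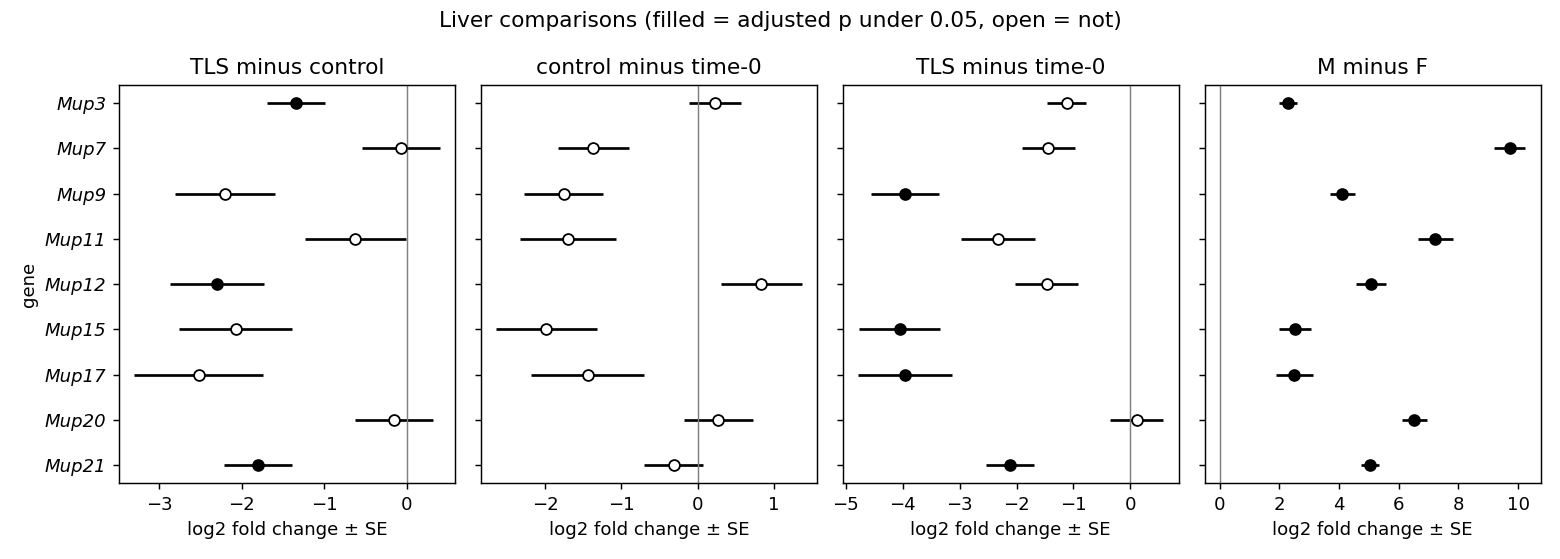
Log2 differences of the 9 genes (y axis) in 4 liver comparisons, with bars of 1 SE, from fits over 24 libraries. In the TLS against control panel Mup3, Mup12 and Mup21 passed the adjusted threshold, and Mup7, Mup11 and Mup20 lie nearest to 0.

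Other liver measures moved with these groups. The summed level of 12 hepatocyte markers was 79996 to 99362 CPM in TLS M livers and 117964 to 173941 CPM in control M livers, without overlap. In F it was 63090 to 132671 and 91303 to 139966 CPM. None of the 12 passed in TLS against control, beside 1.95% of all tested genes, and their median log2 difference was 0.23. Albumin, the main plasma protein of hepatocytes, stood at -0.89 ± 0.26 (adjusted p = 0.0749, edgeR). In M its gene Alb averaged 75507 CPM in controls and 29598 CPM under TLS, so this 1 gene weighs heavily in the summed level. Apoa1, another of the 12, averaged 12043 CPM in control M livers and 13177 CPM in TLS M livers. The summed level of 6 adipocyte markers was 22.7 to 103 CPM in control M livers and 0.812 to 1.62 CPM in TLS M livers. In F it was 0.129 to 2.0 CPM in controls and 0.584 to 2.61 CPM under TLS, and the TLS difference of Cidec differed between the sexes (M minus F -5.46 ± 0.87, adjusted p = 0.0188, edgeR). In the fit that joined both sexes Cfd, the adipocyte protease adipsin, was lower, at -6.09 ± 0.96 on the log2 scale. Its TLS difference, M minus F, stood at -7.02 ± 2.47 (adjusted p = 0.725, edgeR), so that value need not describe F. TLS M library A5DA held 671 CPM of 7 leukocyte markers, against 0.758 to 18.7 CPM in the other liver libraries. The part of these measures in the Mup differences was not tested. Without B51B and A5DA, Mup21 alone passed, at -1.65 (adjusted p = 0.0349). TLS libraries carry the numbers 50 to 96 and control libraries 98 to 144, so TLS and the order of library numbers cannot be told apart. Time-0 libraries span 53 to 145. In the deposited order the liver time-0 F animals stand among the TLS animals, and the time-0 M animals among the controls. Sex within time-0 livers therefore cannot be told apart from that order. TLS against time-0 crosses it in M, and controls against time-0 in F.

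In controls against time-0 no member passed, beside 0.529% of genes called. By unadjusted p below 0.05 there were 4 members, beside 2057 of 13604 genes. DESeq2 called no member, and limma voom called 2, Mup7 and Mup15, among 1397 genes. Mup15 showed the plainest values: 189, 153, 761 and 159 CPM in time-0 M livers and 76.4, 55.4, 47.1 and 19.3 CPM in control M livers. In F it measured 43.2, 60.7, 62.2 and 36.4 CPM at time-0. All control values lay below all time-0 values of the same sex, and the log2 difference was -1.98 ± 0.66 (adjusted p = 0.185, edgeR). Mup9 stood at -1.76 ± 0.52 (adjusted p = 0.136), Mup7 at -1.37 ± 0.47 (0.190) and Mup11 at -1.70 ± 0.62 (0.219). Mup17 stood at -1.44 ± 0.74 (0.362). Mup12, also a central gene, had the opposite sign, at 0.83 ± 0.53 (0.468), and 3 of 4 control M libraries lay above all time-0 M libraries. Mup3 stood at 0.23 ± 0.34, Mup20 at 0.27 ± 0.45 and Mup21 at -0.31 ± 0.39. The Mup21 control mean was 57.6% of the time-0 mean in M and 137% in F.

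Against time-0, TLS livers were lower in 4 members, Mup9, Mup15, Mup17 and Mup21, while 1.34% of genes were called. Time-0 animals were 122 days old and TLS animals 205 days, so TLS and age cannot be told apart in this comparison. Of these members only Mup21 also passed in TLS against controls. The 3 treatment comparisons share libraries, so their values are set side by side and not counted as separate evidence. Mup17 measured 519, 194, 228 and 159 CPM in time-0 F livers and 587, 558, 2065 and 1118 CPM in time-0 M livers. Both sexes lay fully above their TLS values given before. The log2 difference was -3.96 ± 0.83 (adjusted p = 0.0145, edgeR). Mup9 stood at -3.96 ± 0.60 (0.000521), Mup15 at -4.05 ± 0.71 (0.00393) and Mup21 at -2.12 ± 0.42 (0.00943). These 4 calls were kept in each of the 16 fits that left out 1 TLS or time-0 library. Mup9 in time-0 M livers measured 23.5, 28.9, 156 and 14.6 CPM, and Mup21 there measured 437, 380, 516 and 626 CPM. For the members that did not pass, Mup3 stood at -1.12 ± 0.35 (adjusted p = 0.106) and Mup20 at 0.11 ± 0.47 (adjusted p = 0.940). Mup3 passed with DESeq2 (adjusted p = 0.0412) and limma voom (0.0203), and Mup11 with DESeq2 (0.0131). At an unadjusted p below 0.05 there were 8 of 9 members, all of them lower, beside 2021 of 13604 genes in either direction.

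Whether the TLS difference itself differed between the sexes was tested with an interaction. No member passed, and 1 of 13604 genes did (0.00735%), the adipocyte gene Cidec. The members had 1 unadjusted p below 0.05, beside 840 of 13604 genes, so the count is no result about them: it was that of Mup20, with M minus F at -2.30 ± 0.80 (unadjusted p = 0.0081, adjusted p = 0.725, edgeR). Mup21 stood at -1.28 ± 0.63 (adjusted p = 0.806) and Mup3 at 0.02 ± 0.71 (adjusted p = 0.998). The same test of the change from time-0 to control called no gene (0% of those tested), while 310 genes had an unadjusted p below 0.05. Mup9 was the only member among those 310, at -1.96 ± 0.94.

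Summed over the 9 genes, control M livers held 25320 ± 8831 CPM (SD, n = 4), TLS M livers 10297 ± 2617 and time-0 M livers 24695 ± 9201. The lowest control M library, at 13986 CPM, lay above the highest TLS M library, at 13326 CPM. In F the sums were 3021 ± 1135 in controls, 1233 ± 1154 under TLS and 2639 ± 1075 at time-0. TLS F livers were at 1355, 2821, 345 and 412 CPM, and the second of these lay within the control range of 1873 to 4559 CPM.

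The make-up of that sum differed between the sexes. Mup3 made 93.9% ± 2.78 of the member counts in control F livers and 53.7% ± 12.9 in control M livers. Mup20 made 39.1% ± 14.0 in control M livers and 2.06% ± 0.417 in control F livers. Its share in TLS F livers was 4.10%, 7.02%, 27.7% and 28.9%, each above the control F range of 1.45% to 2.35%. The 2 high shares came from B4B9 and B51B, the livers with the lowest Mup3. In time-0 F livers the Mup20 share was 1.22%, 1.11%, 5.35% and 2.19%. The value of 5.35%, in T0_3, lay above the lowest TLS F share of 4.10%. In TLS M livers the Mup20 share was 39.4% ± 6.20, within the spread of controls.

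**Figure D4:**
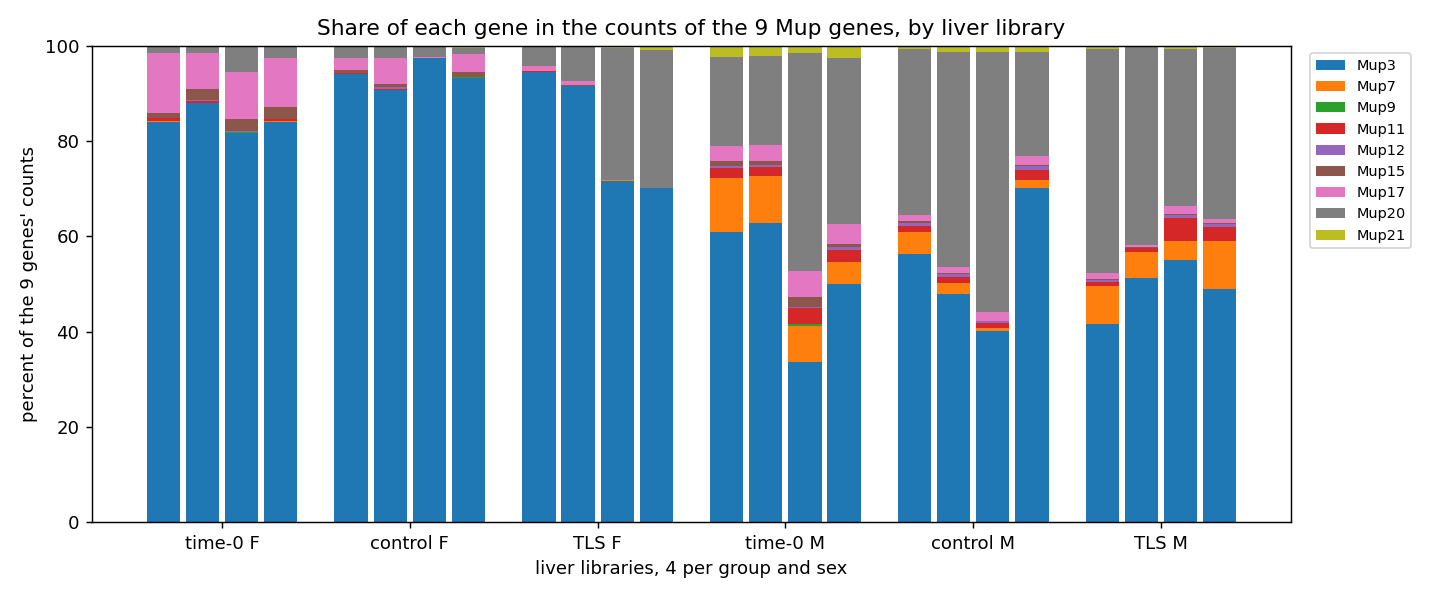
Share of each gene in the summed counts of the 9 genes (y axis, percent), 1 stacked bar per liver library, 4 per group and sex (x axis). Mup3 fills most of each F bar, and Mup20 fills from 18.7% to 54.7% of the M bars. In TLS F, 2 bars show a Mup20 share of 27.7% and 28.9%.

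The members also varied together among animals of 1 group and sex. After each log2 level was centred within its 6 group-by-sex cells, Mup15 and Mup17 had the highest correlation over the 24 liver libraries (Pearson r = 0.94). Mup11 and Mup12 followed at 0.87, and Mup3 with Mup17 stood at 0.85. Mup7 and Mup20 had the lowest, at 0.10. Averaged over its 8 partners, Mup20 had the lowest r of all members, 0.33, and Mup17 the highest, 0.72. These values share libraries, and the central genes share sequence, so they are given as a description. In TLS F library B51B, Mup7, Mup9, Mup11, Mup15 and Mup17 were all at 0 counts, while Mup20 had 446. The part of such low counts in these r values was not tested.

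Among 12027 other liver genes, the level most like the mean of the 9 members over the 24 libraries was that of Elovl3, a fatty acid elongase (r = 0.96). Cyp7b1, an oxysterol hydroxylase, and Slc15a5 stood at 0.95, Nudt7, a peroxisomal hydrolase, at 0.95, Hsd3b5, a steroid dehydrogenase, at 0.94 and C4a, a complement component, at 0.93. Elovl3 measured 64.7 ± 18.5 CPM in control M livers and 1.89 ± 1.24 CPM in control F livers. With levels centred within group and sex, the order was Gm3734 (0.90), Immp2l (0.87), Gm13775 (0.86), Gm40264 (0.86), Elovl3 (0.83) and Tsc22d1 (0.83). Elovl3 is the gene found on both lists.

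Of the 13 other numbered Mup rows, 9 could be tested. None was called between TLS and controls, 3 were lower under TLS than at time-0, and 7 were higher in M. Over all tested genes 1.95%, 1.34% and 6.35% were called in these comparisons, in either direction. The 3 with most counts were Mup14, Mup22 and Mup1, at -0.44 ± 0.36, -0.78 ± 0.36 and -0.65 ± 0.45 in TLS against control. Mup14 measured 342 ± 92.8 CPM in control M livers and 251 ± 90.6 CPM in TLS M livers. All Mup rows together came to 26193 ± 9017 CPM in control M livers and 10967 ± 2815 CPM in TLS M livers, and most of both sums is counts of the 9 members.

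The hormone pathway known to act on Mup genes was read from a list of 14 growth hormone signalling genes. Between TLS and control livers 2 of them were higher and none lower, beside 1.95% of all tested genes called. Igfbp1, a binding protein for insulin-like growth factors, was higher by 2.42 ± 0.55 (adjusted p = 0.0232, edgeR), and Socs3, a feedback inhibitor of cytokine signalling, by 1.67 ± 0.44 (adjusted p = 0.0467). Igfbp1 measured 13.7 ± 9.32 CPM at time-0, 3.57 ± 2.20 in controls and 17.2 ± 14.3 under TLS, so the control group was the low one, and none of the 14 genes passed in TLS against time-0. Socs3 measured 8.56 ± 3.57 CPM at time-0, 6.05 ± 2.22 in controls and 20.8 ± 23.6 under TLS. Its TLS median was 10.2 CPM, and 1 TLS M liver stood at 74.3 CPM. Igfbp2 stood at 0.73 ± 0.25 (adjusted p = 0.122). Of 16 transcription factors that act on Mup or sex-biased liver genes none passed in TLS against control. Nr1d1, a clock repressor, came nearest at 0.73 ± 0.23 (adjusted p = 0.0927, edgeR), then Cux2 at 0.79 ± 0.38 and Esr1 at 0.36 ± 0.20. The regulators were not all level with time-0: 1 of the 16 was lower in controls than at time-0, beside 0.529% of genes called. Under TLS 1 was higher and 1 lower than at time-0, beside 1.34% of genes called.

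Genes known as sex-biased were read beside the Mup values. Of 17 tested male-biased genes all 17 were higher in M, and of 22 female-biased genes all 22 were lower. Over all tested genes 6.35% were called in either direction. The lists were chosen with earlier results of these data known, so these counts describe the lists and test nothing. Between TLS and control 1 male-biased gene was higher, the glucuronosyltransferase gene Ugt2b38 at 2.39 ± 0.55 (adjusted p = 0.0236, edgeR), and none was lower. C6 and Cyp4a12b stood at 0.75 ± 0.22 and 2.26 ± 0.72 and did not pass. In M, Ugt2b38 measured 22.0 ± 8.88 CPM at time-0, 11.2 ± 0.882 in controls and 36.9 ± 21.8 under TLS. Cyp4a12b measured 79.4 ± 30.8, 32.6 ± 7.01 and 80.2 ± 55.0 CPM in the same order, so controls were the low group for both. In control F livers Ugt2b38 was at 0 in 3 of 4 libraries and Cyp4a12b in all 4. Female-biased genes had 2 lower members, the cytochrome P450 genes Cyp3a44 at -3.55 ± 0.77 and Cyp3a41a at -3.43 ± 0.81, and Hao2 stood at -1.71 ± 0.47 (adjusted p = 0.0547). The medians in TLS against control were 0.18 over the male-biased list and -0.72 over the female-biased list. Against time-0, 3 male-biased and 3 female-biased genes were lower under TLS and none was higher, beside 1.34% of genes called. In TLS against control 1.95% of genes were called. Of 11 other lipocalins tested none passed in TLS against control: Orm2 stood at 5.32 ± 1.55, Lcn2 at 7.45 ± 2.23 and C8g at -0.82 ± 0.28. Orm2 and Lcn2, which rise in the acute phase response, each reached their highest level in 1 TLS M liver, at 13482 and 7755 CPM, against medians of 23.2 and 3.13 CPM in that group.

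Outside the liver, Mup3 was the one member with enough counts to test, and only in WAT, where it had 3086 counts over 23 libraries and Mup11, the next, had 122. There it measured 26.2, 1.25, 8.49 and 3.91 CPM in control F animals and 10.3, 15.3, 17.7 and 16.4 CPM in TLS F animals. In M the 3 controls measured 1.04, 0.373 and 0.0677 CPM and the TLS animals 0.851, 0.118, 2.02 and 3.79 CPM. The groups overlapped in both sexes, and the log2 difference was 0.93 ± 0.64 (adjusted p = 0.613, edgeR), while 0.00596% of 16784 genes were called. In WAT the sex difference ran opposite to that in liver: Mup3 was lower in M than in F by a log2 difference of -3.30 ± 0.56 (adjusted p = 0.00044, edgeR), beside 13.0% of genes called. It passed in each of the 23 fits that left out 1 WAT library, at -3.71 to -2.92. This comparison was added after the counts were seen. Markers of several cell types also differed by sex in WAT. Of the hepatocyte markers 2 of 6 tested were lower in M, Ahsg at -1.65 ± 0.40 and Apoc3 at -1.67 ± 0.49. Of 5 epithelial markers of the bile duct list 2 were higher and 2 lower, with Epcam at 3.01 ± 0.99 and Krt7 at -1.66 ± 0.32. The neuronal gene Slc17a7 was higher at 6.12 ± 0.68, and 1 of 5 stellate and endothelial markers, Des, was lower at -1.65 ± 0.34. The part of these markers in the Mup3 difference was not tested.

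**Figure D5:**
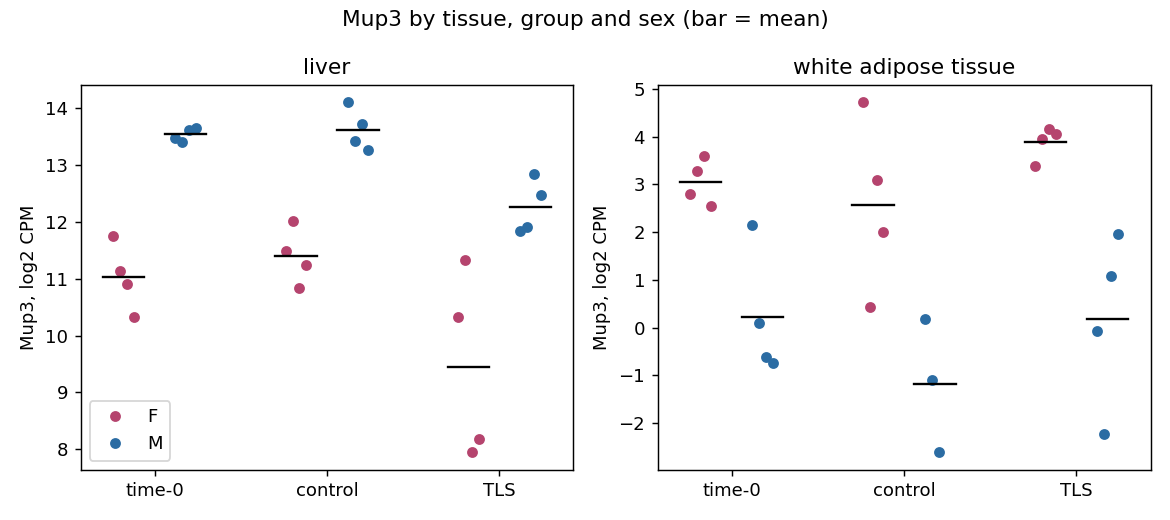
Mup3 level in log2 CPM (y axis) by group (x axis) in liver (left) and white adipose tissue (right), 1 point per library, F and M in different colours, bars at the mean. The M points are the higher ones in liver and the lower ones in WAT, and the scales of the panels differ.

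Kidney and cortex held almost no member counts. Over 24 kidney libraries Mup3 had 12 counts and Mup20 had 4, and Mup7, Mup9, Mup15 and Mup17 had 0. In cortex Mup3 had 101 counts and Mup20 had 44 over 24 libraries. Most came from 1 library, time-0 M animal T0_8, with 90 counts of Mup3 and 43 of Mup20. That library also held 372 counts of Alb, against at most 11 in any other cortex library, and 10 of 12 hepatocyte markers were above their level in all other cortex libraries.

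In a joint fit over all tissues, the TLS difference in liver was set against the mean of those in the other 3. Of 20888 genes 4.77% were called and no member passed. Mup3 stood at -1.30 ± 1.40 (adjusted p = 0.696, edgeR) and Mup20 at -0.50 ± 0.64 (adjusted p = 0.777). Outside the liver Mup20 rested on 4 counts in kidney, 44 in cortex and 58 in WAT, so its difference cannot be read as a contrast of tissues. Mup3 too had few counts in kidney and cortex. The other 7 members were at or near 0 outside the liver, and their standard errors were too large for the difference to be read.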

How the data were processed

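The deposited values are raw read counts, with 1 row per symbol; per the file headers they are featureCounts counts and carry the word "corrected", which the sources used here leave unexplained. STAR 2.7.10, DESeq2, mm10 and GRCm38 are named in the submitters' processing notes, without role. Per the labels' protocols, libraries were made from poly(A) RNA with random priming. Strand setting and annotation were not given in the sources used here. The F and M letters, filed under another tag in the labels, were read as sex and matched Xist and Y-linked counts in all 95 libraries. The labels name separate animals, which are the replicates.

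Counts were filtered with filterByExpr (minimum count 10), scaled by TMM and tested with edgeR 4.0.16 (robust quasi-likelihood, R 4.3.3) within each tissue, with sex as covariate or with 6 group-by-sex means. Benjamini-Hochberg adjusted p below 0.05 over all tested genes counted as passed. A joint fit covered all tissues. SE is the absolute log2 difference divided by the root of F. Log2 CPM used a prior count of 2. Alternatives were DESeq2 1.42.0, limma 3.58.1 (voom), other filters and covariates, and leaving out libraries. On counts simulated for TLS against control in liver (13426 genes), 53.6% of 2-fold and 92.7% of 4-fold changes were recovered and 5.37% of calls were false. Each gene was simulated from 1 mean share over all livers, without a sex difference and without outlying libraries. These rates may therefore not hold for the real livers.

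All 9 members are named. Of other numbered Mup rows the 3 with most counts are named. Of the growth hormone, regulator, male-biased, female-biased and lipocalin lists, up to 3 genes by smallest p in liver TLS against control are named. For likeness the 6 highest Pearson r were taken among genes whose log2 CPM averaged 0 or more. Members and lists were chosen with earlier results of these data known. Sequences are RefSeq promoter windows on GRCm38.p6, and transcripts are from GENCODE for GRCm38. Protein sequences were not analysed here.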

Additional observations from a re-analysis of the deposited data

Results flagged for a closer look

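Within 71 groups of 4 libraries (a gene or a sum in 1 tissue, group and sex), 12 held a library far from the other 3, and chance alone gives about 1 in 20. In 6 of the 12, all in cortex or kidney, the other libraries were at 0, so that any count is marked and this rate does not apply. In liver, Mup15 stood high in time-0 M animal T0_7, at 9.57 log2 CPM with the next at 7.56. Mup15 stood low in control F animal A123, at -0.86 log2 CPM with the next at 4.37, and in TLS M animal A5DA, at 2.83 with the next at 4.72. Mup20 stood low in A5DA as well, at 11.61 log2 CPM with the next at 12.02.

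In cortex, the summed CPM of the 9 genes stood out in time-0 M animal T0_8 at 7.32 CPM, in control M animal 9BA4 at 0.194 CPM and in TLS F animal B51B at 0.0461 CPM. The cortex library of T0_8 is the one with hepatocyte markers above all other cortex libraries. In kidney the sum stood out in the time-0 libraries of T0_5 (0.406 CPM) and T0_4 (0.0681 CPM), the pair whose sex letters differ from the animals' other tissues. It also did so in control F animal A123 (0.0935 CPM), control M animal A367 (0.108 CPM) and TLS F animal B51B (0.0655 CPM), where the other libraries of the group were at 0 or close to it. The kidney values and the low cortex values rest on few counts.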

How the results depend on the processing

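The count of 9 members higher in M held in all 29 alternatives, and no direction of a called member reversed in any alternative run. The 3 members lower under TLS than in controls became 5 with DESeq2 and 2 with limma voom, which called Mup3 and Mup21 but not Mup12. The count was 1 with M libraries alone, with no low-count filter, with only the 2 groups compared or without B51B and A5DA. Leaving out those 2 animals was an alternative chosen after seeing the data. With F libraries alone or no sex covariate the count was 0. Leaving out 1 library gave 0 to 5 members, and 84 to 803 genes in all against 265. Genes called in all were 1184 with limma voom, 599 with DESeq2, 154 with no sex covariate and 64 with only the 2 groups. In controls against time-0 the count of 0 became 2 with limma voom, which called 1397 genes against 72. In TLS against time-0 the 4 members became 6 with DESeq2, 5 with limma voom and 0 with F libraries alone or no sex covariate, and leaving out 1 library gave 4 to 5: Mup11 was added without DDF3 and Mup3 without B23B. For the sex difference of the TLS effect, 2 members, Mup12 and Mup15, passed with no filter, among 191 of 30405 genes. In WAT 1 member, Mup3, was called between the sexes, and it was lower in M. The number of members called in either direction became 3 with DESeq2 and 4 with no filter, where members with few counts are tested too. The directions of the added members are not given here. The count stayed at 1 when any 1 WAT library was left out. Other causes were not tested. Liver groups hold different animals, so pairing was possible in the joint fit alone: with the animal as a block, 0 members and 764 genes passed, with Mup3 at -1.58 (adjusted p = 0.613, edgeR). The 0 counts of Mup7, Mup9, Mup11, Mup15 and Mup17 in B51B are limited by its depth, where 3 counts are 0.800 CPM.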
